A study of Homo sapiens with 18 samples.

Results

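A negative-control siRNA is a duplex with no intended target, and here it was compared with untransfected cells in U251, a human glioblastoma cell line grown in culture. The comparison takes 12 of the 18 arrays of the series: the 6 arrays of cells given the negative siRNA (siNeg) and the 6 arrays of cells given no siRNA (Control), each with 2 arrays at 6, 24 and 48 h. The siNeg cells received 2 pmol of siRNA, and the Control cells are labelled as receiving no treatment. Nothing else distinguishes the groups in the labels, which do not name the transfection reagent, so siRNA and reagent cannot be told apart. The other 6 arrays hold cells given an siRNA against MPS1, the spindle checkpoint kinase encoded by TTK (siMPS1), and their values are given beside those of the named genes only. Total RNA was measured on a 3' expression array, and every level below is log2(signal + 3), from the signals of 1 probe set per gene for 7805 genes. All differences are siNeg minus Control on that scale.

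Small interfering RNAs enter cells with a lipid or polymer carrier, are loaded onto Argonaute proteins, and cut or destabilise transcripts that pair with the guide strand. A duplex without an intended target can still lower transcripts that pair with its seed, can be sensed as foreign RNA by receptors such as RIG-I, PKR and the Toll-like receptors, and arrives with a carrier that loads membranes and endosomes. The comparison asks which transcripts differ between siRNA-treated and untouched cells by a shift that the 3 times share. The labels do not give the sequence of the negative siRNA, so no seed match was examined.

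Before the results, the libraries were compared with their labels. TTK did not separate the groups, with a difference of 0.01 (95% interval -0.19 to 0.22, limma adjusted p = 0.969), while the siMPS1 arrays, labelled as targeting it, differed from Control by -1.86 (adjusted p = 2.8e-08). The glioma-associated VIM (11.9 in siNeg, 11.9 in Control) and CD44 (11.5 and 11.5) were bright, as was NES (9.09 and 8.98), whereas the astrocyte marker GFAP (3.72 and 3.97) and S100B (2.3 and 2.3) were dim. Among neuronal and epithelial markers, NEFL (10.7 and 10.6), KRT18 (9.46 and 9.51) and KRT8 (7.93 and 7.94) were bright too. Above the lowest 40% of probe sets lay 11 of 15 glial, mesenchymal and stem markers, 5 of 9 neuronal, 4 of 10 epithelial and 1 of 7 blood markers. The linear signal of the 7 blood markers with a probe set summed to 34.9 to 53.5 in siNeg and 24.6 to 52.8 in Control, so it overlapped. Replicate arrays correlated at 0.943 to 0.948 over all probe sets, and no pair shared an identical value. The labels do not say if replicate arrays stand for separate cultures, so p-values measure only the spread between these arrays, and their number limits the precision.

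3 genes passed the time-adjusted test, and all 3 were lower in siNeg. PPP3R1, the regulatory B subunit of the calcium-activated phosphatase calcineurin, differed by -0.43, DESI2, a member of the desumoylating isopeptidase family, by -0.35, and NEDD4, an E3 ubiquitin ligase that marks membrane proteins for endocytosis, by -0.27. They were 3 of 7805 genes tested (0.0384%), with 0 genes called higher (0%), by limma with time as a factor and Benjamini-Hochberg adjustment. At an unadjusted p under 0.05 there were 923 genes (11.8%). In each of the 3, both siNeg arrays lay below both Control arrays at 6, 24 and 48 h, so each also met the condition of one direction at all 3 times. In cultures measured as bulk RNA, fewer cells of a kind and less RNA per cell cannot be told apart.

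The stretches just before the start sites of these 3 genes are shown because they are the only genes the time-adjusted comparison called. Each line holds the 250 bases before a RefSeq transcript start on GRCh38.p14, read 5' to 3' on the strand of the gene, with matches in capitals: the GC box (GGGCGG), the CCAAT box (CCAAT), the TATA box (TATAAA), the E box (CACGTG) and the cAMP response element (TGACGTCA) were searched on both strands. NEDD4 has 2 start sites in that table.
PPP3R1, chr2:68252533-68252782, minus strand: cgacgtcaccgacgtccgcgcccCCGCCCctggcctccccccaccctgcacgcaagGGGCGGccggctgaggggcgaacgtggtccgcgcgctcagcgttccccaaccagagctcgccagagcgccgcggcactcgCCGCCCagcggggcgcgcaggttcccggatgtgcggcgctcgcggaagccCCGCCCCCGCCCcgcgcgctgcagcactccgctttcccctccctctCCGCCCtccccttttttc
DESI2, chr1:244652876-244653125, plus strand: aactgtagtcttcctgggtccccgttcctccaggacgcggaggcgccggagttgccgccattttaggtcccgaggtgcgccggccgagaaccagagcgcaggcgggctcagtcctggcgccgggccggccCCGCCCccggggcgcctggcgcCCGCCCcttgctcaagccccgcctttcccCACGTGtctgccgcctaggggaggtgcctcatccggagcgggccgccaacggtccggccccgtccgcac
NEDD4, chr15:55993613-55993862, minus strand: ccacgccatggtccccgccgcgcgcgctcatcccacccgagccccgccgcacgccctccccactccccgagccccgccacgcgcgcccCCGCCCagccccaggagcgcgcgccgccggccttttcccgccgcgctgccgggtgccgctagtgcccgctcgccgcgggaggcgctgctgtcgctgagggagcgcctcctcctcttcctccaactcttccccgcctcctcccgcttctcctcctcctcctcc
NEDD4, chr15:55917137-55917386, minus strand: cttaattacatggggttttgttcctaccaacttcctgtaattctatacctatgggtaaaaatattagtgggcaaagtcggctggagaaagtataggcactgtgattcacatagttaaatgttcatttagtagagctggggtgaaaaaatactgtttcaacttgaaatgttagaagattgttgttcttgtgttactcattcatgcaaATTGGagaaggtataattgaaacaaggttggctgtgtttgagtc
The PPP3R1 window was 76.8% G or C with 6 GC box matches, and the DESI2 window was 74.4% with 2 GC box matches and 1 E box. The upstream NEDD4 window was 78.0% with 1 GC box match, and the other NEDD4 window was 36.0% with 1 CCAAT match on its opposite strand. Among 35116 RefSeq windows of the same length, the median was 58% G or C, and the GC box was found in 42.6%, the CCAAT box in 32%, the TATA box in 10.7%, the E box in 6.34% and the cAMP response element in 1.65%. A match is a description of the letters and not a binding site.

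PPP3R1 encodes the calcium-binding subunit without which calcineurin does not dephosphorylate its substrates, among them the NFAT transcription factors. Its level was 7.57 and 7.43 in siNeg at 6 h, against 7.87 and 7.86 in Control. At 24 h it was 7.29 and 7.55 in siNeg, against 7.78 and 7.72 in Control, and at 48 h 7.24 and 7.33 in siNeg, against 7.91 and 7.85 in Control. The 6 siNeg arrays lay below all 6 Control arrays, and the differences at the 3 times were -0.36, -0.33 and -0.59. The shared difference was -0.43 (SE 0.0652, limma adjusted p = 0.03), and the test of unequal differences between the times gave an adjusted p of 0.266. A second PPP3R1 probe set on the array was lower as well, by -0.54 (SE 0.0906, unadjusted p = 3.5e-05), with differences of -0.75, -0.17 and -0.71 at 6, 24 and 48 h.

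DESI2 was the only gene called at each of the 3 times in one direction (0.0128%). It read 8.10 and 8.08 in siNeg at 6 h, against 8.36 and 8.36 in Control. At 24 h the values were 7.88 and 7.82 in siNeg and 8.38 and 8.31 in Control, and at 48 h 7.996 and 7.958 in siNeg and 8.25 and 8.30 in Control. No siNeg array reached any Control array. The differences were -0.27, -0.49 and -0.30, with adjusted p of 0.0332, 0.00411 and 0.008 in the limma fit of group means, and the shared difference was -0.35 (SE 0.0522, limma adjusted p = 0.03). Of its other probe sets, one was lower by -0.40 (SE 0.092, unadjusted p = 0.000636) and a dim one, at a mean of 3.38, differed by -0.19 (SE 0.22, unadjusted p = 0.404).

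NEDD4 was lower at the later times in both groups, and the gap between them was even. It read 9.012 and 8.999 in siNeg at 6 h, against 9.26 and 9.27 in Control. At 24 h it read 8.32 and 8.31 in siNeg, against 8.53 and 8.62 in Control, and at 48 h 8.19 and 8.21 in siNeg, against 8.45 and 8.51 in Control. The groups overlapped only across times, never within one. The 3 differences were -0.26, -0.26 and -0.28, the shared one was -0.27 (SE 0.0426, limma adjusted p = 0.0356), and the interaction with time had an adjusted p of 0.972. The array has 1 probe set for it.

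The siMPS1 arrays held 2 patterns for these genes. They are compared here with the same siNeg and Control arrays by which the genes were chosen. The sizes and p-values below are therefore no separate test. PPP3R1 read 7.87 and 7.83 at 6 h, 7.72 and 7.97 at 24 h, and 7.95 and 7.94 at 48 h in siMPS1, levels that overlapped those of Control: the difference was 0.47 from siNeg (SE 0.0696, adjusted p = 0.000185) and 0.05 from Control (SE 0.0696, adjusted p = 0.709), by limma on 18 arrays. Its second probe set did not follow this, with siMPS1 lower than Control by -0.33 (unadjusted p = 0.00244). DESI2 read 8.19 and 8.16, 8.46 and 8.67, and 8.48 and 8.51 in siMPS1 at 6, 24 and 48 h, a difference of 0.44 from siNeg (SE 0.0793, adjusted p = 0.0014) and 0.08 from Control (SE 0.0793, adjusted p = 0.531). At 6 h both of those siMPS1 arrays lay between the siNeg and the Control arrays. NEDD4 went the other way, with 9.11 and 8.94, 8.15 and 8.08, and 7.84 and 7.84 in siMPS1, a difference of -0.18 from siNeg (SE 0.0631, adjusted p = 0.0728) and -0.45 from Control (SE 0.0631, adjusted p = 9.21e-05). Of the 3 genes called between siNeg and Control, NEDD4 alone was therefore called lower in siMPS1 than in Control, and a p that misses the threshold does not show that siMPS1 and Control were alike for the other 2.

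**Figure D1:**
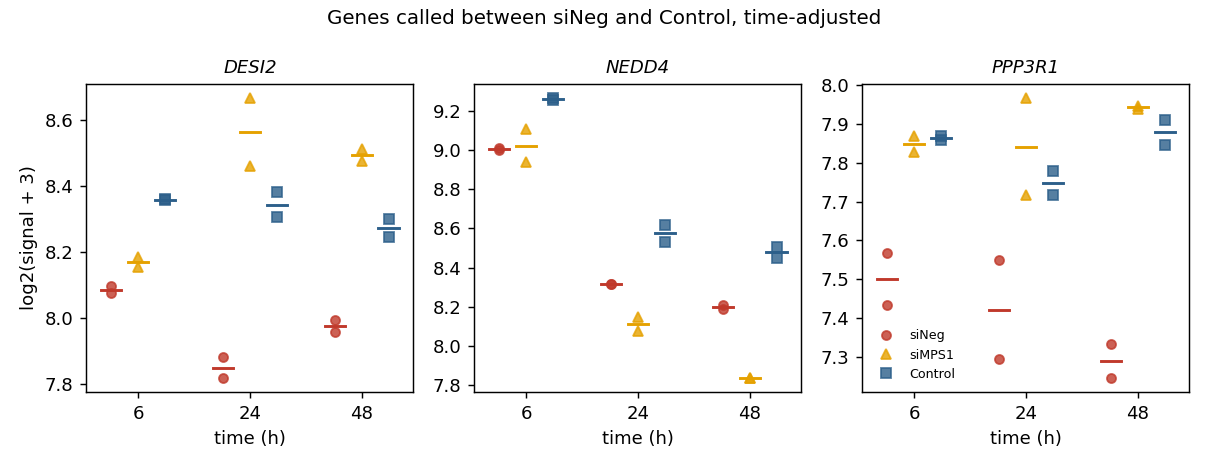
Levels of DESI2, NEDD4 and PPP3R1 as log2(signal + 3) against time in hours, 1 point per array and a bar at the mean of the 2 arrays, for siNeg, siMPS1 and Control. At every time both siNeg points lie below both Control points, and the siMPS1 points lie near Control for PPP3R1 and at or below siNeg for NEDD4 at 24 and 48 h.

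These 3 calls rest on few arrays. None was called without the 6 h or without the 48 h arrays, and all 3 were called without the 24 h arrays. Each gene kept its sign under all 26 alternatives, but the call of DESI2 held in 10 of them (adjusted p 0.0164 to 0.344), of PPP3R1 in 13 (0.00596 to 0.344) and of NEDD4 in 8 (0.016 to 0.441). Leaving out 1 array in turn, the DESI2 call held only without Control 24 h replicate 1 or siNeg 6 h replicate 1, the NEDD4 call only without Control 24 h replicate 1, and the PPP3R1 call without Control 24 h replicate 1, siNeg 24 h replicate 2 or siNeg 6 h replicate 1. Without any other array it ended, with adjusted p up to 0.155 for each gene, while over all 12 omissions the differences lay between -0.37 and -0.33 for DESI2, -0.28 and -0.25 for NEDD4, and -0.47 and -0.40 for PPP3R1.

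A wider view came from averaging the 3 differences of each gene in a fit of group means, in which disagreement between the times does not count as error. That average was called in 407 genes (5.21%), 212 higher (2.72%) and 195 lower (2.5%) in siNeg. Of them 208 (2.66%) had one sign at all 3 times, 89 higher (1.14%) and 119 lower (1.52%). One sign at all 3 times was found in 1663 of the 7805 genes (21.3%), 828 higher (10.6%) and 835 lower (10.7%). With each array centred on its median, which moved the median of all genes at 6 h to -0.125 (0.02 as deposited), the average was called in 137 genes higher and 343 lower. The called, one-signed genes then numbered 71 higher and 174 lower. The 208 differences were small, with a median size of 0.25, and were largest at 48 h in 124 genes, at 6 h in 57 and at 24 h in 27. Both siNeg arrays lay beyond both Control arrays at each time in 195 genes (2.5%), 89 higher (1.14%) and 106 lower (1.36%), of which 95 (1.22%) were called on the average, 37 higher (0.474%) and 58 lower (0.743%). The average was called in 260 genes without siNeg 24 h replicate 1 and in 244 without siNeg 24 h replicate 2, where 128 had one sign, and in 74 without the 48 h arrays, where 65 had one sign.

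Among these 95 genes, the 12 largest rises and the 12 largest falls were examined, a choice made after their values were seen. None of them other than PPP3R1 and DESI2 passed the time-adjusted test, and adjusted p on the average are given here. Each named gene kept its sign at all 3 times under quantile normalization and under median centring. After median centring, however, the 24 h difference was -0.0037 for CTSZ, -0.00332 for KCNK1 and -0.0442 for ANKRD1, too close to 0 for the sign to mean a direction.

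Among the falls, CTSZ, a lysosomal cysteine protease, read 8.09 and 8.14 in siNeg at 6 h, against 8.70 and 8.61 in Control. At 24 h it read 8.30 and 8.25 in siNeg, against 8.31 and 8.38 in Control, and at 48 h 7.74 and 7.64 in siNeg, against 8.54 and 8.43 in Control. The 24 h arrays were nearly level, and the average difference was -0.47 (SE 0.041, limma adjusted p = 9.58e-05). Among membrane proteins, the integrin subunit ITGB8 differed by -0.46 (adjusted p = 0.00822), the semaphorin and VEGF co-receptor NRP1 by -0.38 (0.0163) and the potassium channel KCNK1 by -0.34 (0.000162). Of the glycosyltransferases, GCNT2, which branches poly-N-acetyllactosamine chains, differed by -0.55 (0.0475) and CSGALNACT2, which starts and extends chondroitin sulfate, by -0.48 (0.00402). Other probe sets of 3 of these genes did not keep one direction: a nearly as bright one of CSGALNACT2 differed by 0.17, -0.36 and -0.54, a dimmer one of ITGB8 by 0.07, -0.10 and -0.61, and a dim one of NRP1 by -0.81, 0.09 and -0.18. The GCNT2 probe set was dim, at a mean of 4.32, and its call held in 8 of 25 alternatives.

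Of the other falls, DUSP1, a phosphatase that inactivates MAP kinases and is itself an immediate early gene, read 9.74 and 9.70 in siNeg at 6 h, against 9.90 and 9.83 in Control. It read 8.078 and 7.998 in siNeg at 24 h, against 8.35 and 8.30 in Control, and 7.23 and 7.02 in siNeg at 48 h, against 7.74 and 7.74 in Control. The differences were unequal, smallest at 6 h and largest at 48 h (interaction adjusted p = 0.0195), with an average of -0.35 (SE 0.0425, adjusted p = 0.000435). In siMPS1 the same gene lay 0.42 above the siNeg arrays by which it was chosen (limma adjusted p = 0.00266), so that p is no separate test. ANKRD1, a YAP-responsive ankyrin repeat protein, differed by -0.13 and -0.11 at 6 and 24 h and by -1.07 at 48 h (average -0.44, adjusted p = 0.000136). PTBP3, a splicing regulator of the polypyrimidine tract-binding family, differed by -0.41 (0.0159). FGF1, a fibroblast growth factor, had the largest average of the 12, -0.68 (0.00822), but it was near background at 24 h (1.99 and 2.08 in siNeg, 3.24 and 2.86 in Control). It was dim at 48 h too, with a median over the 6 arrays of 3.16 in siNeg and 3.89 in Control. At 6 h, where it was bright, the difference was -0.31 (limma adjusted p = 0.466). Its other probe set differed by 0.46 in the opposite direction (unadjusted p = 0.0968).

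Among the rises, RBM5, a regulator of alternative splicing, read 8.14 and 8.04 in siNeg at 6 h, against 7.56 and 7.50 in Control. At 24 h it read 7.58 and 7.50 in siNeg, against 7.46 and 7.47 in Control, and at 48 h 7.32 and 7.33 in siNeg, against 6.82 and 6.66 in Control. The 24 h gap was the narrowest, and the average was 0.41 (SE 0.0473, adjusted p = 0.00038). A second RBM5 probe set differed by 0.46, 0.18 and 0.37, and a dim one by 1.41, -0.62 and 0.69. ACIN1, a component of the splicing-dependent exon junction machinery that is cleaved in apoptosis, was higher by 0.41 (0.00982), and ATXN2, a poly(A)-binding protein partner found in stress granules, by 0.54 (0.0218). HNRNPA3, an RNA-packaging protein, was higher by 0.36 (0.0356), but another of its probe sets, nearly as bright, differed by -0.04 (unadjusted p = 0.484).

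COL5A1, the alpha 1 chain of the fibril-regulating type V collagen, was, with RBM5, one of 2 rises whose call held in all 26 alternatives. It read 9.49 and 9.59 in siNeg at 6 h, against 9.24 and 9.18 in Control. At 24 h it read 7.78 and 7.68 in siNeg, against 7.61 and 7.61 in Control, and at 48 h 7.51 and 7.28 in siNeg, against 6.53 and 6.68 in Control. Its level was lower at the later times in both groups and higher in siNeg at each of them, with an average of 0.41 (SE 0.0497, adjusted p = 0.000435), and a second probe set differed by 0.25, 0.11 and 0.35. A dimmer COL5A1 probe set was not higher throughout, with 0.26, -0.22 and 0.42. The other members were CCZ1B (0.69, 0.00822), a subunit of the complex that activates RAB7 on late endosomes and a near copy of CCZ1 whose signal may not be separable from it, the neural transcription factor POU3F2 (0.57, 0.0282), the F-box protein FBXL6 (0.56, 0.0185), the transcriptional activator CAMTA2 (0.55, 0.0223), the Fanconi anaemia core protein FANCG (0.39, 0.0155), the ketone body enzyme BDH1 (0.38, 0.0202) and the nuclear transport receptor IPO13 (0.34, 0.0247). CCZ1B, POU3F2 and FBXL6 had mean levels of 4.81, 4.40 and 4.84, near the lower limit of what was tested. The call was kept in 14 of 25 alternatives for POU3F2 and for CAMTA2, 15 of 25 for ATXN2, 16 of 26 for IPO13, 10 of 26 for HNRNPA3 and at least 20 for the other 7 rises.

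**Figure D2:**
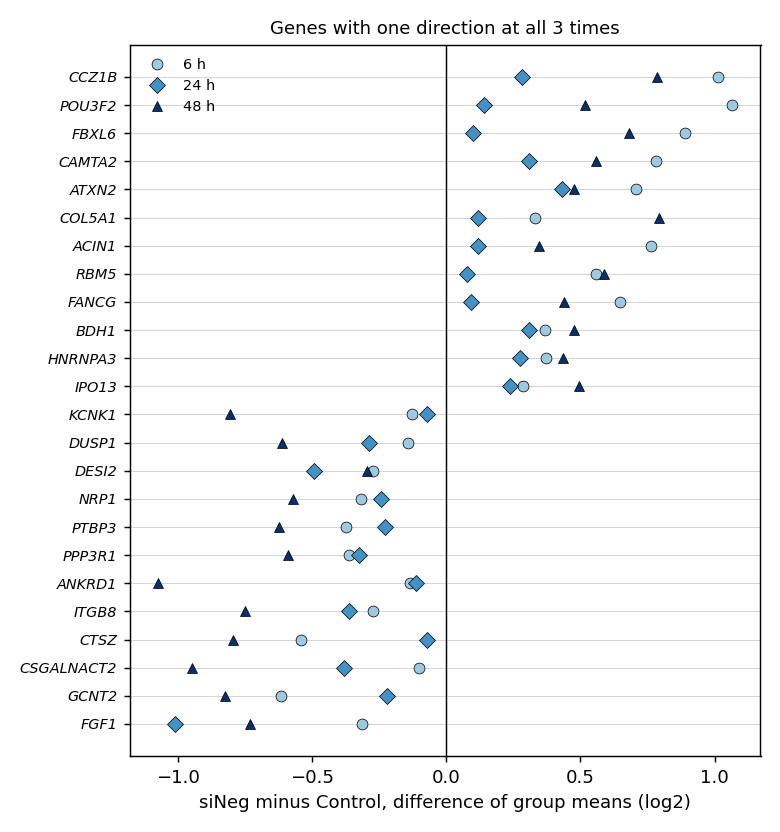
Difference of group means, siNeg minus Control on the log2(signal + 3) scale, at 6, 24 and 48 h for the 12 largest rises and 12 largest falls among genes called on the average whose arrays did not overlap at any time. Every point of a gene lies on 1 side of 0, and CTSZ, KCNK1, RBM5, FANCG and FBXL6 lie nearest to 0 at 24 h.

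The number of genes called differed between the times. At 6 h there were 331 called genes (4.24%), 245 higher (3.14%) and 86 lower (1.1%) in siNeg. At 24 h there were 54 (0.692%), 29 higher (0.372%) and 25 lower (0.32%), and at 48 h 1079 (13.8%), 566 higher (7.25%) and 513 lower (6.57%). The direction at 6 and 24 h depended on the scaling: after median centring the 6 h calls were 162 higher and 1156 lower and the 24 h calls 142 higher and 22 lower, and the 48 h calls 445 higher and 559 lower. Under quantile normalization they were 173 higher and 64 lower at 6 h, 49 and 60 at 24 h, and 566 and 512 at 48 h. Leaving out either array of the 6 h groups lowered the 6 h count to 106 (siNeg replicate 1), 56 (siNeg replicate 2), 87 (Control replicate 1) or 128 (Control replicate 2). At 24 h the count was 5 or 10 without a siNeg array and 17 or 7 without a Control array of that time (replicate 1, then 2), and 161 or 159 without a siNeg array of 48 h. At 48 h it was 533 without siNeg replicate 1, and 607 or 682 without Control replicate 1 or 2.

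**Figure D3:**
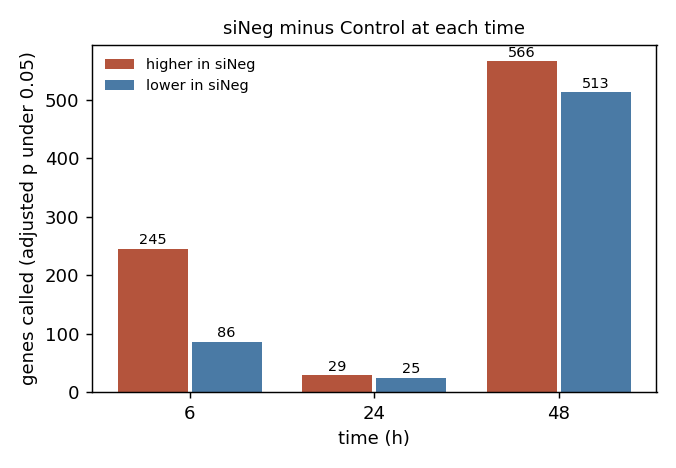
Number of genes called between siNeg and Control at each time (limma, adjusted p under 0.05, of 7805 tested), split into genes higher and lower in siNeg. The 6 h bars stand at 245 and 86, the 24 h bars at 29 and 25, and the 48 h bars at 566 and 513.

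The 24 h differences ran against those of the other times. Across 7805 genes, which are not independent replicates, the differences at 6 and 24 h correlated at r = -0.162 (rho = -0.197), those at 24 and 48 h at r = -0.164 (rho = -0.175), and those at 6 and 48 h at r = 0.186 (rho = 0.188); each pair comes from separate arrays. The calls at 6 and 48 h had 118 genes in common, 35.6% of the 6 h and 10.9% of the 48 h calls, and 98 of these had the same sign at both times, 85 higher and 13 lower in siNeg. Of the 85, 67 had a negative difference at 24 h, and of the 13, 8 had a positive one. Genes called at all 3 times numbered 5 (0.0641%), and besides DESI2 these were ACTN4, MLF2, PMEPA1 and SNRNP70, each higher at 6 and 48 h and lower at 24 h. With the 24 h arrays left out, 404 genes were called by the time-adjusted fit, 300 higher and 104 lower.

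The interaction test, which asks whether the siNeg minus Control difference itself differs between the times, called 1085 genes (13.9%), and 1041 of them (13.3%) had both signs among the times. It called 219 of the 407 genes called on the average (2.81% of all genes), and 42 of the 208 with one sign (0.538%). Without siNeg 24 h replicate 1 it called 634 genes, and without Control 24 h replicate 2 it called 653. HMOX1, which degrades haem and is induced by oxidative stress, read 9.21 and 9.18 in siNeg at 6 h, against 9.10 and 9.05 in Control, and 10.2 and 10.3 in siNeg at 24 h, against 9.921 and 9.999 in Control. At 48 h it read 7.75 and 7.91 in siNeg, against 9.56 and 9.41 in Control. The differences were 0.12, 0.30 and -1.66 (interaction adjusted p = 1.78e-07 by limma). The interferon-induced IFI27 and the calcium buffer CALB1 also had their large difference at 48 h, with differences of -0.07, 0.23 and -1.37, and of 0.11, -0.02 and -1.46.

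ACTN4, an actin crosslinker, alternated instead. It read 8.63 and 8.61 in siNeg at 6 h, against 8.14 and 8.08 in Control, 7.78 and 7.69 in siNeg at 24 h, against 8.09 and 8.21 in Control, and 8.81 and 8.85 in siNeg at 48 h, against 7.96 and 7.95 in Control. PMEPA1, a membrane adaptor that limits TGF-beta signalling and recruits NEDD4-family ligases, had differences of 0.45, -0.52 and 0.69. In both genes the siNeg and Control arrays did not overlap at any time, and the sign at 24 h was opposite to that at 6 and 48 h.

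**Figure D4:**
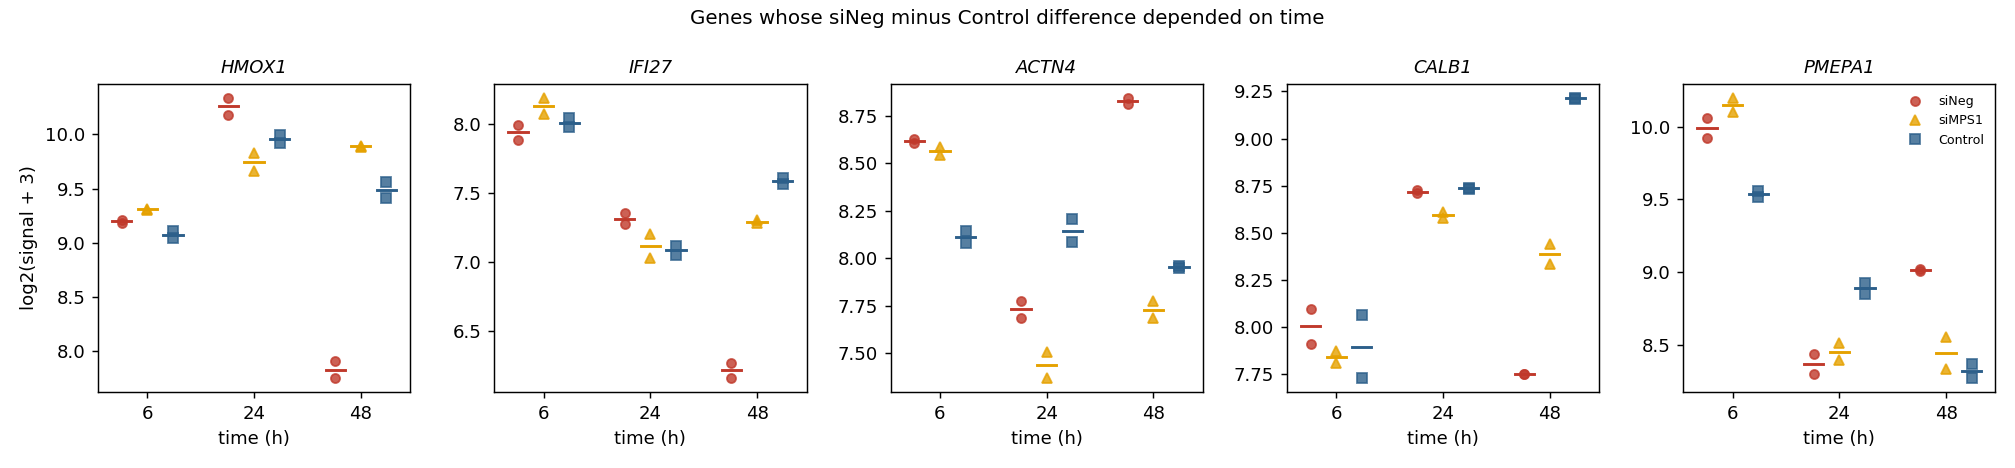
Levels of the 5 genes with the smallest interaction p as log2(signal + 3) against time in hours, 1 point per array and a bar at the mean of the 2 arrays, for siNeg, siMPS1 and Control. HMOX1, IFI27 and CALB1 lie below Control in siNeg at 48 h, and ACTN4 and PMEPA1 lie above Control in siNeg at 6 and 48 h and below it at 24 h.

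Measures outside the genes moved with the groups at single times. The log2 signal of the 18S ribosomal RNA control probe sets averaged 10.1 in siNeg at 6 h, against 10.2 in Control, 11.2 in siNeg at 24 h, against 10.2 in Control, and 9.47 in siNeg at 48 h, against 10.2 in Control. The dap spike, a bacterial transcript added to the RNA, read 6.57, 7.12 and 5.56 in siNeg at 6, 24 and 48 h, against 7.21, 6.76 and 7.46 in Control. In both, the siNeg and Control arrays did not overlap at any time. The ACTB 3' minus 5' difference, a measure of RNA integrity and labelling, averaged 0.285, 0.407 and 0.117 in siNeg at 6, 24 and 48 h, against 0.170, 0.309 and 0.204 in Control, also without overlap at any time. The GAPDH 3' minus 5' difference averaged 0.101, 0.0406 and 0.0471 in siNeg, against 0.0410, 0.0268 and -0.0312 in Control, with arrays that overlapped at 6 and 24 h. Averaged over the times, the exact permutation test within time (two-sided, smallest possible p = 0.00926) gave p = 0.556 for 18S, 0.0926 for dap, 0.269 for ACTB and 0.0556 for GAPDH (adjusted over 8 measures, 0.741, 0.37, 0.533 and 0.37). Differences of opposite sign at the times cancel in that average, so these p-values do not show that the groups were alike at each time. The part of these measures in the gene results was not tested.

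No gene list had a member called by the time-adjusted fit, so the lists are described by the average over the times, where 5.21% of all genes were called and the median of all genes was 0.01. These lists were written with earlier results of these data known. Of 39 interferon-induced genes measured, 0 were higher and 1 was lower (2.56%), IFI27 (-0.40, adjusted p = 0.00038), and the median of the list was 0.02. Of 15 genes of RNA sensing and signalling, 1 was lower (6.67%), TANK, an adaptor between TRAF proteins and the TBK1 kinase, whose other probe sets differed by 0.20 and 0.01 in the opposite direction. Of 13 genes of the RNA interference machinery, 1 was higher (7.69%): TARBP2, the double-stranded RNA-binding partner of Dicer, read 6.58 and 6.73, 6.78 and 6.78, and 6.59 and 6.49 in siNeg at 6, 24 and 48 h, against 6.50 and 6.41, 6.64 and 6.49, and 6.24 and 6.12 in Control. It was higher in siNeg at each time without overlap, by 0.26 (SE 0.0617, adjusted p = 0.0247).

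Of 28 genes of endocytosis and endosomes, 4 were higher and 2 lower (21.4%), with a list median of 0.01. The higher ones were the clathrin adaptor subunits AP2M1 (0.27, adjusted p = 0.0027) and AP2S1 (0.17, 0.0112), the ESCRT sorting protein HGS (0.36, 0.000253) and the membrane raft protein FLOT1 (0.16, 0.0407). The lower ones were the clathrin adaptor partner EPS15 (-0.18, 0.0261) and the retromer subunit VPS35 (-0.15, 0.0422). VPS35, with 1 probe set, had one direction at all 3 times, and AP2M1, HGS and FLOT1 did not. The probe sets used for AP2S1 and EPS15 did too, but others of these genes did not: for AP2S1 one differed by -0.09, -0.12 and 0.19 and another had a negative difference at 24 h, and for EPS15 one differed by 0.05, 0.01 and -0.36. At the probe sets used, the 24 h difference was -0.05 for VPS35, -0.05 for EPS15 and 0.05 for AP2S1. The 24 h list median was -0.00127 as deposited, -0.03 under quantile normalization and 0.07 after median centring. Differences this small at 24 h do not settle a direction. Leaving out 1 array in turn gave between 3 and 6 called members, with 3 without Control 6 h replicate 2, Control 48 h replicate 1, siNeg 6 h replicate 2, siNeg 24 h replicate 2 or siNeg 48 h replicate 1. Over these omissions the average was called in 244 to 393 of all genes, against 407 with every array. Without the 48 h arrays no member was called, where 74 of all genes were called.

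Of 43 splicing factors and hnRNPs, 5 were higher and 0 lower (11.6%), and 12 had positive and 2 negative differences at all 3 times (32.6%, against 21.3% of all genes). These counts are as deposited and depend on the scaling. The list median at 6 h was 0.02 as deposited, 0.06 under quantile normalization and -0.125 after median centring, and at 24 h 0.02, -0.03 and 0.09. U2AF2, which binds the polypyrimidine tract before exons, was higher by 0.57 (adjusted p = 0.00822), with differences of 1.03, 0.19 and 0.50 at 6, 24 and 48 h. Another U2AF2 probe set, dimmer, differed by 0.46, -0.33 and 0.92. The probe sets used for HNRNPR (0.14, 0.0408) and SF3B3 of the U2 particle (0.19, 0.0328) had one direction too, but a second bright one of HNRNPR differed by -0.08, 0.24 and -0.15 and a second of SF3B3 by 0.16, -0.01 and -0.01, whereas SNRNP70 of the U1 particle (0.85, -0.45 and 0.36) and SRSF6 (-0.02, -0.08 and 0.53) did not. Leaving out 1 array in turn gave between 2 and 6 called members, with 2 in 8 of the 12 omissions. Over these omissions the average was called in 244 to 393 of all genes, against 407 with every array.

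Of 35 extracellular matrix genes, 7 were higher and 2 lower (25.7%), and the list median was 0.08. Besides COL5A1, the crosslinking enzyme LOXL2 had positive differences at all 3 times (0.24, 0.16 and 0.49; average adjusted p = 0.0064), although a dim probe set of it differed by -0.02. The gelatinase MMP2 (average 0.33), the urokinase PLAU (0.13) and the collagen chains COL4A2 (0.22), COL6A1 (0.13) and COL6A2 (0.42) were called but had negative differences at 24 h. The microfibril protein FBN1 had negative differences at each time (-0.19, -0.34 and -0.18; adjusted p = 0.0107), as had the crosslinking enzyme LOX (-0.04, -0.18 and -0.70; 0.00502), though a second LOX probe set was at 0.04 at 24 h. Without the 48 h arrays 1 member was called, where 74 of all genes were called.

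Of 28 genes of the unfolded protein response, 0 were higher and 6 lower (21.4%), with a list median of -0.09, and the medians at 6, 24 and 48 h were 0.02, 0.03 and -0.26. EDEM1, which hands misfolded glycoproteins to degradation (-0.16, -0.20 and -0.26; adjusted p = 0.0434), and SEL1L, the adaptor of the HRD1 ligase (-0.22, -0.11 and -0.35; 0.0176), kept one direction, although other SEL1L probe sets differed by 0.04 and 0.08. The other 4, ATF3, DERL1, HERPUD1 and DDIT3, had negative differences at 48 h and positive ones at 24 h. Without the 48 h arrays 1 member was called, where 74 of all genes were called. Without the 24 h arrays 10 members were called, where 996 of all genes were called. With single arrays left out there were between 1 and 5, with 1 without Control 48 h replicate 1 or siNeg 24 h replicate 2. There were 4 or more only without Control 48 h replicate 2 or either siNeg 48 h array. Without siNeg 24 h replicate 2 the average was called in 244 of all genes, against 407 with every array, so the 5.21% does not apply there. With any single array left out it was called in 244 to 393 genes, which holds for the next list too. Of 23 oxidative stress genes, 0 were higher and 5 lower (21.7%), among them the aldo-keto reductase AKR1C1 (-0.53, adjusted p = 0.000435) and GCLM, which limits glutathione synthesis (-0.20, 0.00404). MAFG alone of these 5 had one sign at all 3 times as deposited, with differences of -0.03, -0.07 and -0.34. With single arrays left out there were 3 or 4, with 3 without either Control 24 h array, Control 6 h replicate 2 or siNeg 24 h replicate 2.

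Other lists had calls in both directions or few. Of 29 immediate early genes, EGR1 and FOSL1 were higher and ATF3, DUSP1, KLF6 and SPRY2 lower (20.7%, against 5.21% of all genes). In the list of 48 genes of mitosis and the spindle checkpoint 4 were higher and 1, TOP2A, lower (10.4%), though a second TOP2A probe set differed by -0.01. Leaving out 1 array in turn gave between 3 and 6 immediate early genes, with 3 without Control 6 h replicate 2, Control 24 h replicate 2, Control 48 h replicate 1, siNeg 6 h replicate 1 or siNeg 24 h replicate 2. It gave between 1 and 6 mitotic genes, with 1 without siNeg 6 h replicate 1 or siNeg 24 h replicate 1, and 2 or 3 without either Control 24 h array, Control 48 h replicate 2, siNeg 24 h replicate 2 or siNeg 48 h replicate 2. Over these omissions the average was called in 244 to 393 of all genes, against 407 with every array. Of 18 genes of NF-kB and inflammation, 1 was lower (5.56%), TNFAIP3, and 2 members had positive and 6 negative differences at all 3 times as deposited (44.4%, against 21.3% of all genes). The 24 h median of that list was -0.03 as deposited, 0.02 under quantile normalization and 0.03 after median centring. Among 19 p53 targets, 23 autophagy genes and 35 cytosolic ribosomal proteins, 0 were called. Median centring moved the 6 h median of all genes to -0.125 and those of the lists with it, to -0.09 for extracellular matrix and -0.13 for the unfolded protein response, whereas under quantile normalization both were at 0.03.

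**Figure D5:**
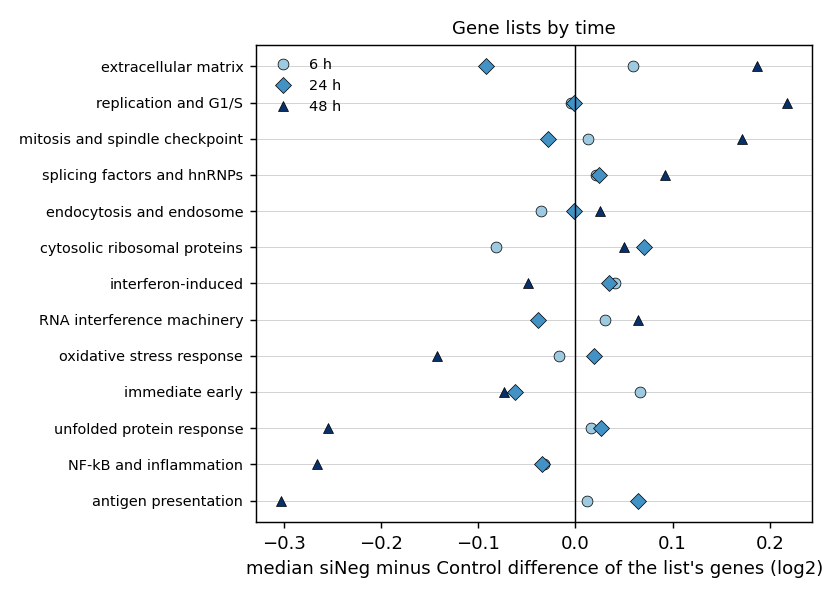
Median siNeg minus Control difference on the log2(signal + 3) scale for 13 gene lists at 6, 24 and 48 h, as deposited. The extracellular matrix list lies at 0.06, -0.09 and 0.19, and the unfolded protein response list at 0.02, 0.03 and -0.26. At 6 h both are at 0.03 under quantile normalization, and at -0.09 and -0.13 after median centring, which moves the median of all genes to -0.125.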

How the data were processed

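The deposited values are log2 signals of an Affymetrix human 3' expression array with 22277 probe sets, made by the authors with MAS5 per the submitters' processing notes; its version and scaling target are not given in these sources. The base was inferred from the values: the trimmed mean signal, 2% off each end, was 100.122 to 100.134 on every array. MAS5 leaves low signals noisy (9.86% of deposited log2 values were under 0), so 3 was added to each signal before log2, which understates changes of dim genes.

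Control probe sets and the lowest 40% by mean over the 12 arrays were left out, and the brightest probe set stood for each gene named alone by the platform annotation. limma 3.58.1 (R 4.3.3) fitted treatment plus time with an intensity trend, two-sided, with Benjamini-Hochberg adjustment over 7805 genes and calls at adjusted p under 0.05. A fit of 6 group means gave the values per time, their average and the interaction. The siMPS1 values come from treatment plus time on 18 arrays, which share siNeg and Control arrays. The fit was tested on simulated data.

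Members and lists were chosen with earlier results of these data known. The rule named TTK, the called genes with the 15 largest rises and falls, the 5 genes with the smallest interaction p and up to 6 members per list by p. The 12 rises and 12 falls on the average, DDIT3, MLF2 and SNRNP70 were added after their values were seen. So were ATF3, FLOT1, SRSF6, SPRY2, PLAU, COL4A2, COL6A1 and COL6A2, list members called on the average. Alternatives changed pseudocount, normalization, filter, probe set rule, trend, block, samples and times.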

Additional observations from a re-analysis of the deposited data

Results flagged for a closer look

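The siNeg minus Control difference of 12 named genes differed between 6, 24 and 48 h by the limma interaction test. The adjusted p was 1.78e-07 for HMOX1, 8.77e-06 for IFI27, 1.34e-05 for ACTN4, 1.53e-05 for CALB1 and 1.71e-05 for PMEPA1, the 5 genes named for it. Of the genes named for one direction at all 3 times, the adjusted p was 8.39e-05 for ANKRD1, 0.000107 for KCNK1, 0.00125 for CTSZ, 0.00676 for COL5A1, 0.0138 for RBM5, 0.0195 for DUSP1 and 0.0204 for CSGALNACT2, so their size differed between the times. Each had one sign at all 3 times, but not every difference was clear of 0. After median centring, those of CTSZ, KCNK1 and ANKRD1 at 24 h were too close to 0 for the sign to mean a direction. CSGALNACT2 differed by -0.10 at 6 h (limma adjusted p = 0.723). Groups of 2 arrays are too small to look for a single outlying array.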

How the results depend on the processing

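PPP3R1, DESI2 and NEDD4 kept their sign in all 26 alternatives, but their number did not hold: the time-adjusted fit called 0 genes with no intensity trend, without 6 h, without 48 h or where a 2-fold change was also asked for, 1 with all 18 arrays, 404 without 24 h (300 higher, 104 lower) and 407 by averaged group means (212 higher, 195 lower). Leaving out 1 array in turn gave 0 to 5 (0 to 1 higher, 0 to 4 lower, 0 to 5 with one direction). Replicate numbers did not pair the arrays (correlations of deviations 0.0119, 0.0221 and -0.0127 at 6, 24 and 48 h); with the replicate block the time-adjusted fit called 0, the 6 h contrast 209 and the 24 h contrast 27. Average calls were 145 with no trend (74 with one direction), 996 without 24 h (923) and 74 without 48 h (65), and 244 to 393 (128 to 198) leaving out 1 array, the lowest without siNeg 24 h replicate 2. Interaction calls were 1968 after median centring, 408 with no trend, 297 without 24 h, 649 without 48 h, and 634 to 1313 leaving out 1 array. At 6 h, 1318 genes were called after median centring, 193 with no filter, 90 with no trend, 207 without 24 h, and 56 to 385 leaving out 1 array. At 24 h the count was 109 (quantile), 164 (median centring), 22 (no filter), 147 (lowest 60% left out), 89 (mean of probe sets), 1 (no trend), 28 without 6 h, 184 without 48 h, and 5 to 161 leaving out 1 array. At 48 h it was 713 with no trend and 533 to 1053 leaving out 1 array. The causes were not tested. The alternatives for the average were chosen after seeing the data. TTK, near 0, turned to -0.00766 (quantile), -0.0199 (median centring), -0.0108 (without 6 h) and -0.0157 (without 48 h), and ranged between -0.0399 and 0.0685 leaving out 1 array. HNRNPA3 turned to -0.1 without 24 h and ranged between -0.0673 and 0.442 leaving out 1 array, where another of its probe sets became the brightest. FGF1 fell below the filter without 6 h and with the lowest 60% left out. Few arrays and dim signals limit the genes near the filter most.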

Other observations

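Some smaller differences were even across the times; these genes were chosen after their values were seen, and none passed the time-adjusted test. In each, both siNeg arrays lay beyond both Control arrays at 6, 24 and 48 h. MSN, which links actin to the plasma membrane, was higher by 0.26, 0.16 and 0.22 (average limma adjusted p = 0.0064), and COPE, a coatomer subunit, by 0.35, 0.38 and 0.25 (0.00719). IDE, the insulin-degrading protease, differed by -0.24, -0.24 and -0.30 (0.00795), though another probe set was at 0.01 at 24 h, the transcription factor SNAI2 by -0.25, -0.15 and -0.30 (0.00663) and the nucleolar protein HEATR1 by -0.22, -0.37 and -0.25 (0.00442), with -0.15, -0.35 and -0.33 at a second HEATR1 probe set.

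Members of other lists were called on the average too, where 5.21% of all genes were called. Among 16 heat shock chaperone genes 3 were higher and 1 lower (25%), and among 8 genes of the metallothionein list 2 were lower (25%). The TGF-beta list had 2 of 21 higher (9.52%) and the hypoxia and glycolysis list 2 of 32 (6.25%). FKBP4 and HSPB1, called higher, and SLC30A1, called lower, had both signs among the times. The heat shock regulator HSF1 was higher by 0.63 (adjusted p = 0.0177), with differences of 0.81, 0.83 and 0.25, but another of its probe sets differed by -0.21. The lens and glial chaperone CRYAB was lower by -0.38 (0.0304), mostly at 48 h, with differences of -0.08, -0.13 and -0.94 (interaction adjusted p = 0.0327 by limma). The metallothionein MT1H was lower by -0.38 (0.0146), with differences of -0.29, -0.08 and -0.76. The TGF-beta mediator SMAD3 was higher by 0.29 (0.0115), with differences of 0.20, 0.07 and 0.59, although 2 dimmer probe sets of it differed by -0.14 and -0.08. PKM, the last enzyme of glycolysis, was higher by 0.30 (0.000465), though PKM did not have one sign at all 3 times.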
